A study of Homo sapiens with 15 samples.

Results

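The genes described here are the receptors, ligands and inhibitors of the epidermal growth factor (EGF) family that were named for this work by symbol, with no threshold on their values. They are 10 of the 60617 gene identifiers in the deposited counts: the receptors EGFR, ERBB2 and ERBB3, the ligands AREG, EREG, HBEGF, TGFA and NRG1, and the inhibitors ERRFI1 and LRIG1. All 10 were among the 23184 genes tested. These genes and the lists below were chosen with earlier results of these data known. Their counts beside shares of all genes are therefore descriptions. RNA was sequenced from 12Z cells, an immortalized epithelial line derived from an endometriotic lesion, in 15 libraries that form 5 groups of 3, which the study describes as independent experiments.

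The groups differed in siRNA, plasmid and treatment. RSAD2, the target of one siRNA pool (siRSAD2), is the gene of the antiviral protein viperin. H1047R insulin cells received siRSAD2, a pBabe plasmid with PIK3CA H1047R, and insulin at 100 nM for 24 h. H1047R vehicle cells received siRSAD2, the same plasmid and vehicle. Insulin cells received siRSAD2, the empty pBabe plasmid and insulin, and siRSAD2 vehicle cells received siRSAD2, the empty plasmid and vehicle. Control cells were given non-targeting siRNAs in place of siRSAD2, with the empty plasmid and vehicle. The plasmid followed the siRNA by 24 h, and serum was removed 24 h after the plasmid. Every group spent 4 h without serum before insulin or vehicle, which lasted 24 h, and the study describes no return of serum. H1047R is an activating substitution in the catalytic subunit of phosphatidylinositol 3-kinase, expressed from a transfected plasmid on top of the cells' own PIK3CA, in bulk cultures in which transfected and untransfected cells were sequenced together. Insulin and H1047R were compared only within siRSAD2 cells.

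The family works as a set of ligands on the outside and paired receptors in the membrane. AREG, EREG, HBEGF and TGFA are made as membrane-bound precursors and are released by proteases such as ADAM17 to bind EGFR, with HBEGF and EREG also binding ERBB4, while NRG1 binds ERBB3 and ERBB4. ERBB2 has no known ligand of its own and acts as a preferred partner of the others, and ERBB3 has little kinase activity and couples the pair to phosphatidylinositol 3-kinase. ERRFI1 (MIG6) binds the kinase domain of EGFR and is made in response to its signalling, and LRIG1 is a transmembrane protein that lowers the amount of ERBB receptors. In the endometrium, EGF ligands and their receptors are known for roles in epithelial growth and in implantation.

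The promoters of AREG, HBEGF and LRIG1 are shown because these genes had the largest changes that passed the test. The 250 bases before the RefSeq start (GRCh38.p14) are given 5′ to 3′ on the strand of the gene, with capitals marking every match, on either strand, to TGANTCA (AP-1), TGACGTCA (cyclic AMP response element, CRE), GGAATG (TEAD), GTAAACA (FOXO) or GGGCGG (SP1).
AREG promoter, chr4:74444886-74445135, plus strand: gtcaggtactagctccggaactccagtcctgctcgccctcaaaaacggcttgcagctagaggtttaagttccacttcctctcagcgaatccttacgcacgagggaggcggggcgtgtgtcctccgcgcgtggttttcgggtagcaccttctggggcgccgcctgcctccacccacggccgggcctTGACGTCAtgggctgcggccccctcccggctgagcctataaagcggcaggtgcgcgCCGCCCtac
HBEGF promoter, chr5:140346604-140346853, minus strand: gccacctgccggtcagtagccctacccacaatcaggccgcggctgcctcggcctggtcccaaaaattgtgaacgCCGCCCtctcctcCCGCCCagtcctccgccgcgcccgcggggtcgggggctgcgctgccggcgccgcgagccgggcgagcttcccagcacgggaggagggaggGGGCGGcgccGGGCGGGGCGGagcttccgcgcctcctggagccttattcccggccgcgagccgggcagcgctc
LRIG1 promoter, chr3:66501122-66501371, minus strand: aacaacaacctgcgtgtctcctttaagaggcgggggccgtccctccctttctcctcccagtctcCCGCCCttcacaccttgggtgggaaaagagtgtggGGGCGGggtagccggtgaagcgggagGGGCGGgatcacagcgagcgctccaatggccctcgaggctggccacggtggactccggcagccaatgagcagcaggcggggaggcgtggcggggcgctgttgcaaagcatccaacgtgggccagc
The AREG window held 1 CRE, whose first base lay 65 bases before the start, and 1 SP1 match. The HBEGF window held 5 SP1 matches, a pair of which shared a base, and the LRIG1 window 3. The LRIG1 coordinates given below come from another annotation, GENCODE, and reach 66501263. Part of the LRIG1 window thus lies inside that span. Of the 10 genes, 8 matched a RefSeq promoter, and ERBB3 and NRG1 are named only. Among those 8, SP1 was found in 6, AP-1, CRE and TEAD in 1 each and FOXO in 0. Of 35116 promoters of the same length, 42.6% held SP1, 6.57% AP-1, 1.65% CRE, 11.9% TEAD and 2.98% FOXO.

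The libraries held 16.1 to 39.7 M reads counted in genes, with a median of 24.3 M. RSAD2 checked the siRNA label, at 0.691, 0.0768 and 0.208 CPM (counts per M counts of the library, after TMM scaling) in siRSAD2 vehicle cells, against 3.003, 3.16 and 3.69 CPM in control cells. PIK3CA checked the plasmid label, at 212, 199 and 223 CPM in H1047R vehicle cells, against 92.1, 84.5 and 90.5 CPM in siRSAD2 vehicle cells. PIK3CA was at 164, 160 and 164 CPM in H1047R insulin cells, against 79.7, 81.4 and 76.4 CPM in insulin cells. RSAD2 was at 0.624, 1.41 and 0.659 CPM in H1047R vehicle cells. It was at 0.823, 0.787 and 0.900 CPM in H1047R insulin cells, against 0.447, 0.129 and 0.417 CPM in insulin cells. The part of these unequal levels in the comparisons below was not tested. The keratins KRT8, KRT18 and KRT19 averaged 938, 644 and 459 CPM over the 15 libraries, whereas the epithelial markers EPCAM and CDH1 averaged 0.251 and 0.570 CPM, and all 9 stromal markers, among them COL1A1 and VIM, were above 1 CPM. The line thus carried its keratins, was near 0 for EPCAM and CDH1, and had high levels of genes usual in stromal cells. Replicate 2 of the insulin cells stood apart from its group, with chi-square values of 11.4 and 12.3 per degree of freedom in its pairs, against at most 6.17 in pairs without it. Replicate 3 of the siRSAD2 vehicle cells stood apart by the immune markers, which reached 12.2 CPM in sum there, against 3.91 to 6.13 CPM over the groups that do not include it, and counts of calls that rest on either library are given without both. Reads on the forward strand made up 5.77% to 5.89% of the counts in control cells, siRSAD2 vehicle cells and replicates 1 and 2 of the insulin cells, and 6.11% to 6.499% in the other 7 libraries, so that this split and H1047R cannot be told apart in vehicle-treated cells. As these are bulk cultures, fewer cells with a transcript and less of it per cell cannot be told apart.

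EGFR led the set by level per exon length. It averaged 26.5 ± 2.83 CPM per kb of exon (SD over 15 libraries), against 11.2 ± 0.557 for ERBB2 and 1.33 ± 0.182 for ERBB3. Among the ligands, HBEGF was the highest at 5.55 ± 1.12 CPM per kb, followed by AREG at 1.36 ± 0.467 and NRG1 at 0.981 ± 0.150. TGFA and EREG were the lowest, at 0.148 ± 0.0638 and 0.0450 ± 0.0318 CPM per kb. ERRFI1 stood second in the whole set by this measure, at 14.2 ± 0.614 CPM per kb, and LRIG1 reached 4.203 ± 1.24. The length is that of all annotated exons merged, such as 4179 bases for ERRFI1, 10321 for ERBB2 and 21372 for NRG1, and the order depends on it. By CPM without length, ERBB2 (116) was above ERRFI1 (59.2), and NRG1 (21.0) was above HBEGF (16.6) and AREG (2.23). Over the libraries, the ranges per kb of ERBB3 (0.986 to 1.62) and NRG1 (0.720 to 1.19) overlapped each other and that of AREG (0.366 to 2.10), so the order of these neighbours was not fixed. EREG had 2 to 14 counts per library and TGFA 5 to 49, which limits what can be said of both, while AREG had 14 to 123 and the other 7 genes at least 229.

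**Figure D1:**
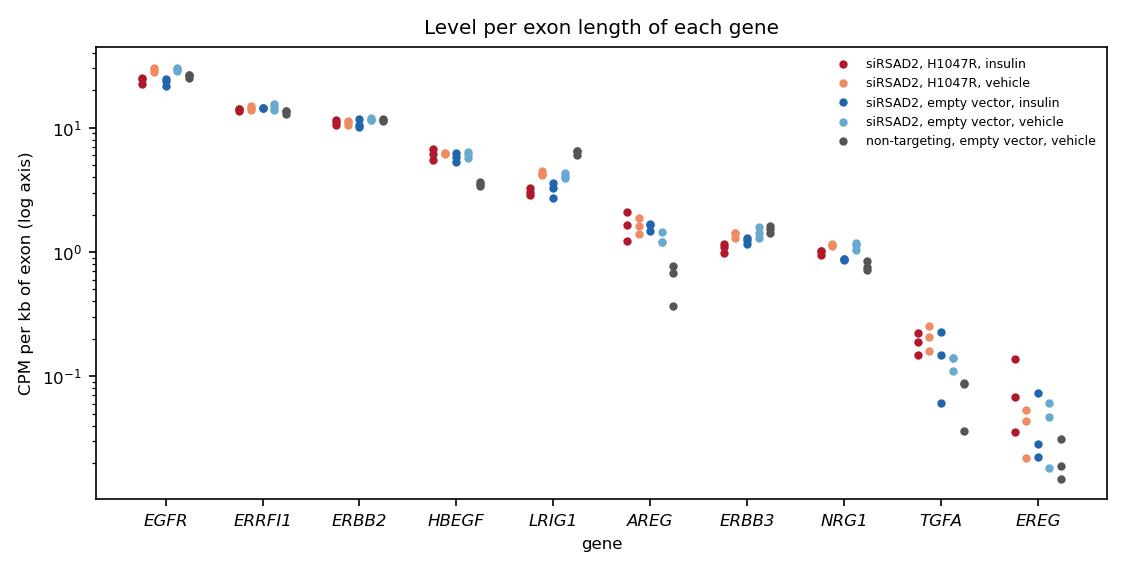
Level of each gene per exon length, as TMM-scaled CPM per kb of merged exon (vertical log axis), with a point for each of the 15 libraries and the 5 groups side by side within a gene. EGFR is the highest at 26.5 CPM per kb on average and EREG the lowest at 0.0450, and the control libraries sit apart from the siRSAD2 libraries for HBEGF, LRIG1 and AREG.

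The first comparison set siRSAD2 vehicle cells against control cells, to see which of these genes differed with siRSAD2. A single siRNA pool was used, and the control libraries are numbered apart from the siRSAD2 libraries. Loss of RSAD2, other effects of the pool and any difference between the so numbered libraries cannot be told apart. Ligands and EGFR rose and one inhibitor fell: AREG, HBEGF, NRG1 and EGFR were higher and LRIG1 was lower with siRSAD2 in the edgeR quasi-likelihood test. These 5 of 10 genes stand against 19.5% of all genes tested that passed (9.82% higher and 9.72% lower), and the median log2 fold change of the 10 was 0.35, against 0.02 over all genes. Groups without overlap were found in 33.2% of all genes in this comparison.

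HBEGF, the heparin-binding ligand (chromosome 5, 140332843 to 140346603, hg38), had 19.1, 18.2 and 17.1 CPM in siRSAD2 vehicle cells, against 10.8, 10.5 and 10.2 CPM in control cells. All siRSAD2 libraries lay above all control libraries, and the groups did not come near each other. The log2 fold change was 0.79 ± 0.09 (SE), 1.73-fold with a 95% interval of 1.52 to 1.96 (edgeR adjusted p = 9.75e-08). HBEGF stayed between 15.7 and 20.3 CPM in the other 9 siRSAD2 libraries as well, which overlapped the siRSAD2 vehicle cells and were all above the control range.

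AREG (amphiregulin, chromosome 4, 74445136 to 74455005), a lower-affinity EGFR ligand, had 1.97, 2.38 and 1.98 CPM in siRSAD2 vehicle cells, against 1.11, 1.26 and 0.601 CPM in control cells. The groups did not overlap, though the control libraries were spread widely at these low counts. The log2 fold change was 1.07 ± 0.25 (SE), or 2.09-fold with a 95% interval of 1.47 to 2.99 (edgeR adjusted p = 0.00223). AREG ranged from 2.02 to 3.45 CPM in the 9 libraries with siRSAD2 and insulin, H1047R or both, again above every control library.

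NRG1 (neuregulin 1, chromosome 8), the ligand of ERBB3 and ERBB4, had 24.3, 22.2 and 25.4 CPM in siRSAD2 vehicle cells, against 18.2, 15.4 and 16.2 CPM in control cells. Every siRSAD2 library was higher than every control library. The log2 fold change was 0.53 ± 0.08 (SE, 1.44-fold, edgeR adjusted p = 5.41e-06).

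TGFA and EREG had positive fold changes that did not pass the test. TGFA, an EGFR ligand, had 0.691, 0.538 and 0.694 CPM in siRSAD2 vehicle cells, against 0.179, 0.431 and 0.429 CPM in control cells, and these groups did not overlap, as in 33.2% of all genes tested. Its log2 fold change was 0.89 ± 0.44 (SE, edgeR adjusted p = 0.167). EREG (epiregulin), which lies 56.4 kb from AREG on chromosome 4, had 0.104, 0.269 and 0.347 CPM in siRSAD2 vehicle cells, against 0.179, 0.108 and 0.0858 CPM in control cells. The EREG groups overlapped, and its log2 fold change of 0.91 ± 0.75 (SE, edgeR adjusted p = 0.458) had a 95% interval of -0.62 to 2.44, so a difference of the size of that of AREG was not detectable at this depth.

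Of the receptors, EGFR (chromosome 7, 55019017 to 55211628) had 486, 452 and 470 CPM in siRSAD2 vehicle cells, against 425, 402 and 422 CPM in control cells. The siRSAD2 libraries were all higher, by a small margin. The log2 fold change was 0.17 ± 0.05 (SE, 1.13-fold, edgeR adjusted p = 0.0106), and without control replicate 5 it was 0.15 with an adjusted p of 0.0739, past the threshold no longer. ERBB2 (chromosome 17, 39687914 to 39730426) had 119, 119 and 123 CPM in siRSAD2 vehicle cells, against 121, 116 and 120 CPM in control cells. These values lay within each other's spread, with a log2 fold change of 0.02 and a 95% interval of -0.09 to 0.13 (edgeR adjusted p = 0.848). ERBB3 (chromosome 12, 56076799 to 56103505) averaged 16.9 ± 1.75 CPM in siRSAD2 vehicle cells and 17.7 ± 1.23 CPM in control cells (SD, n = 3 each), with overlapping groups and a log2 fold change of -0.07 (95% interval -0.25 to 0.11, edgeR adjusted p = 0.645).

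LRIG1 (chromosome 3, 66378797 to 66501263), the inhibitor that lowers receptor amounts, had 30.2, 28.9 and 27.9 CPM in siRSAD2 vehicle cells, against 45.9, 42.3 and 45.7 CPM in control cells. It was the only one of the 10 genes that fell, and the groups were far apart. The fall was 0.62 ± 0.08 in log2 units (SE, edgeR adjusted p = 3.10e-07), or 0.650-fold with a 95% interval of 0.583 to 0.724. ERRFI1 (chromosome 1, 8004404 to 8026309), the inhibitor that binds the EGFR kinase, had 64.3, 60.9 and 58.0 CPM in siRSAD2 vehicle cells, against 56.8, 54.1 and 56.6 CPM in control cells. The ERRFI1 groups did not overlap either, as in 33.2% of all genes. Its log2 fold change of 0.13 ± 0.05 (SE) missed the threshold (edgeR adjusted p = 0.0958). Without the 2 libraries that stood apart, ERRFI1 passed at 0.16 (edgeR adjusted p = 0.0390), and 6 of the 10 genes were called, against 4390 of 22942 genes tested. Over the marker lists, the summed epithelial markers were 1900 to 2038 CPM in siRSAD2 vehicle cells and 2352 to 2386 CPM in control cells, with 3 of 6 lower and 0 higher (4 lower without those libraries). The summed stromal markers were 7187 to 7276 CPM in siRSAD2 vehicle cells and 7684 to 8081 CPM in control cells, with 7 of 9 lower and 1 higher, with and without those libraries. Of all genes tested, 9.72% were lower and 9.82% higher in this comparison. The part of these shifts in the values above was not tested.

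**Figure D2:**
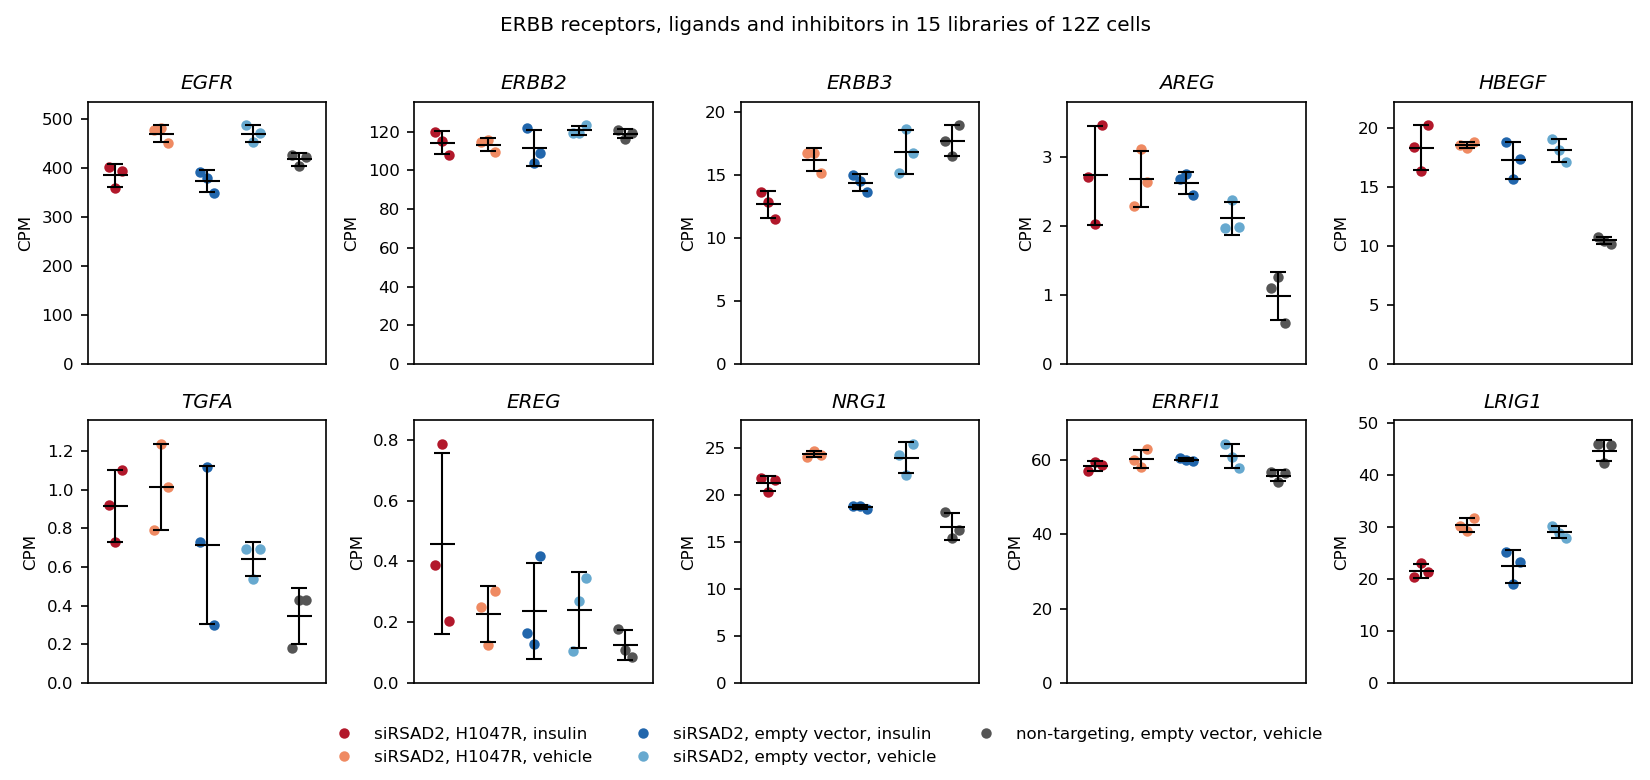
TMM-scaled CPM (vertical axes, from 0) of the 10 genes in the 5 groups, with a point for each library and bars for the mean and SD of 3 libraries. HBEGF, AREG and NRG1 are lowest, and LRIG1 highest, in the control libraries at the right of each panel, and EGFR and LRIG1 are lower in the insulin groups than in the vehicle groups with the same plasmid.

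The next comparisons set insulin against vehicle, once with the empty plasmid and once with H1047R, with no library in common. They share the siRSAD2 libraries with other comparisons: the siRSAD2 vehicle cells serve on one side here and on the other side above. With the empty plasmid, EGFR, NRG1 and LRIG1 fell with insulin and 0 of the 10 genes rose. These 3 of 10 stand against 6.28% of all genes (2.10% higher and 4.19% lower), with a median of -0.10 over the 10 genes and 0.00 over all. Without the 2 libraries that stood apart, the count with the empty plasmid was again 3. The summed stromal markers were 6161 to 6853 CPM in insulin cells and 7187 to 7276 CPM in siRSAD2 vehicle cells, with 9 of 9 fold changes negative and 2 markers lower in the test (1 without those libraries). The summed epithelial markers, 1754 to 2054 CPM in insulin cells and 1900 to 2038 CPM in siRSAD2 vehicle cells, overlapped, with 1 of 6 lower (0 without those libraries). The part of these markers in the values below was not tested. With H1047R, EGFR, ERBB3 and LRIG1 fell and 0 rose, against 2.47% of all genes (0.483% higher and 1.99% lower), with a median of -0.09 over the 10 genes and 0.00 over all. The stromal sums overlapped there, at 6539 to 7027 CPM in H1047R insulin cells and 6871 to 7037 CPM in H1047R vehicle cells, with 2 of 9 markers lower.

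EGFR had 391, 378 and 348 CPM in insulin cells, against 486, 452 and 470 CPM in siRSAD2 vehicle cells. With H1047R it had 401, 358 and 393 CPM in H1047R insulin cells, against 476, 482 and 450 CPM in H1047R vehicle cells. In both settings every insulin library was below every vehicle library. Groups without overlap, in either direction, were found in 18.9% of all genes with the empty plasmid and 19.4% with H1047R. EGFR fell by 0.33 ± 0.05 on the log2 scale with the empty plasmid (SE, edgeR adjusted p = 2.28e-05) and by 0.29 ± 0.05 with H1047R (SE, edgeR adjusted p = 0.000279). In the order of all 5 groups, both insulin groups (means of 372 and 384 CPM) overlapped each other below the control cells (417 CPM), and both vehicle groups with siRSAD2 (each 469 CPM) overlapped each other above them.

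LRIG1 had 25.2, 19.0 and 23.2 CPM in insulin cells, against 30.2, 28.9 and 27.9 CPM in siRSAD2 vehicle cells. With H1047R it had 20.3, 23.0 and 21.4 CPM in H1047R insulin cells, against 30.1, 29.2 and 31.7 CPM in H1047R vehicle cells. The insulin groups lay below the vehicle groups without overlap (18.9% and 19.4% of all genes had no overlap). All 12 siRSAD2 libraries were below the lowest control library. LRIG1 fell by 0.37 ± 0.08 with the empty plasmid (SE, edgeR adjusted p = 0.00428) and by 0.49 ± 0.08 with H1047R (SE, edgeR adjusted p = 0.000221), both on the log2 scale. Replicate 2 of the insulin cells held the lowest value, and without it and the other library that stood apart LRIG1 fell by 0.29 (edgeR adjusted p = 0.0374). In a fit of the 2 groups compared alone, the fall with the empty plasmid was 0.38 and missed the threshold (edgeR adjusted p = 0.0673).

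NRG1 had 18.8, 18.8 and 18.5 CPM in insulin cells, against 24.3, 22.2 and 25.4 CPM in siRSAD2 vehicle cells. With H1047R it had 21.8, 20.3 and 21.6 CPM in H1047R insulin cells, against 24.1, 24.7 and 24.2 CPM in H1047R vehicle cells. Both insulin groups were below their vehicle groups without overlap, as groups did not overlap in 18.9% and 19.4% of all genes. The 3 insulin libraries with the empty plasmid were nearly equal. NRG1 fell by 0.36 ± 0.08 on the log2 scale with the empty plasmid (SE, edgeR adjusted p = 0.00352), and its difference of -0.19 ± 0.08 with H1047R did not pass (SE, edgeR adjusted p = 0.261). Without the 2 libraries that stood apart, NRG1 fell by 0.32 with the empty plasmid (edgeR adjusted p = 0.0410), near the threshold. The difference between both insulin effects, tested as the interaction, was 0.16 ± 0.11 for NRG1 (SE, edgeR adjusted p = 0.803).

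ERBB3 had 13.7, 12.9 and 11.5 CPM in H1047R insulin cells, against 16.8, 16.8 and 15.2 CPM in H1047R vehicle cells. With the empty plasmid it had 15.04, 14.6 and 13.7 CPM in insulin cells, against 15.2, 18.7 and 16.8 CPM in siRSAD2 vehicle cells. The insulin libraries were lower without overlap in both settings, narrowly so with the empty plasmid, and 19.4% of all genes had groups without overlap with H1047R. ERBB3 fell by 0.37 ± 0.09 on the log2 scale with H1047R (SE, edgeR adjusted p = 0.0246), and its difference of -0.22 ± 0.09 with the empty plasmid did not pass (SE, edgeR adjusted p = 0.174). The call with H1047R did not hold when single libraries were left out: the edgeR adjusted p was 0.121 without H1047R vehicle replicate 1, 0.131 without replicate 2, 0.0617 without H1047R insulin replicate 2 and 0.266 without replicate 3, where the fall was 0.30. The interaction for ERBB3 was -0.15 ± 0.13 (SE, edgeR adjusted p = 0.856).

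ERBB2, the partner receptor, had 122, 104 and 109 CPM in insulin cells, against 119, 119 and 123 CPM in siRSAD2 vehicle cells, and these groups overlapped. Its log2 fold change of -0.11 ± 0.05 (SE) did not pass (edgeR adjusted p = 0.256), and without insulin replicate 1, the highest of its group, ERBB2 fell by 0.18 (edgeR adjusted p = 0.0327). With H1047R the log2 fold change of ERBB2 with insulin was 0.01, with a 95% interval of -0.10 to 0.12. ERRFI1 had log2 fold changes with insulin of -0.02 with the empty plasmid (95% interval -0.13 to 0.09) and -0.05 with H1047R (-0.16 to 0.07).

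The EGFR ligands among the 10 genes did not pass with insulin. HBEGF had log2 fold changes of -0.07 with the empty plasmid (95% interval -0.25 to 0.11) and 0.00 with H1047R (-0.18 to 0.17). AREG had 2.68, 2.75 and 2.44 CPM in insulin cells, against 1.97, 2.38 and 1.98 CPM in siRSAD2 vehicle cells, and these groups did not overlap, as in 18.9% of all genes. The log2 fold change of AREG was 0.32 ± 0.23 (SE, edgeR adjusted p = 0.490), and with H1047R it was 0.05 ± 0.22 (SE, edgeR adjusted p = 0.985). TGFA and EREG had intervals wider than 1 log2 unit in both settings, and all 4 of their pairs of groups overlapped, as did those of AREG with H1047R.

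**Figure D3:**
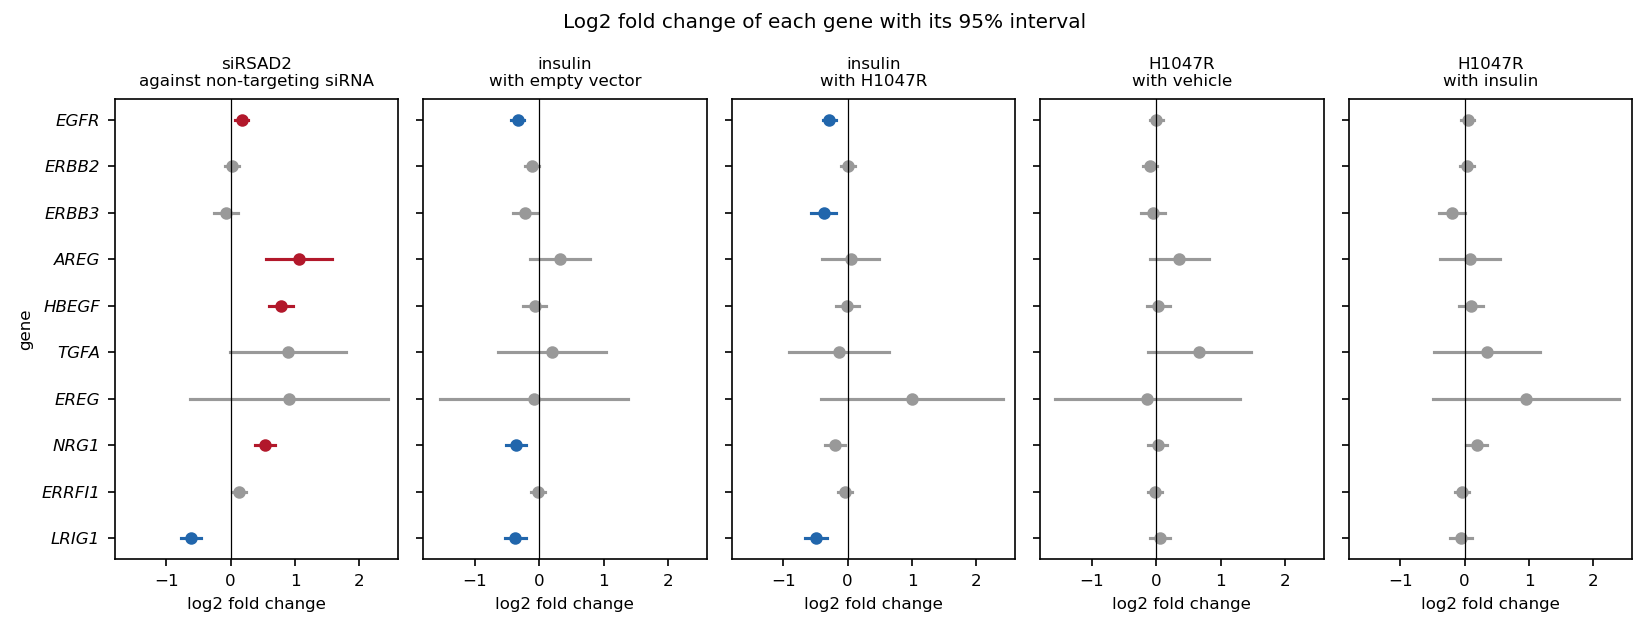
Log2 fold change (horizontal axes) of the 10 genes (vertical axis) in the 5 comparisons, with lines for 95% intervals. Red marks genes that passed as higher, blue those that passed as lower and grey the rest. AREG, HBEGF and NRG1 lie to the right and LRIG1 to the left with siRSAD2. EGFR and LRIG1 passed as lower with insulin and either plasmid, NRG1 with the empty plasmid only and ERBB3 with H1047R only. No gene passed for H1047R against the empty plasmid, with vehicle or with insulin.

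H1047R was set against the empty plasmid to see whether the mutant kinase moved these genes in siRSAD2 cells, and 0 of the 10 genes passed with vehicle or with insulin. The share of all genes that passed was 1.36% with vehicle and 0.285% with insulin. At an unadjusted p of 0.05, 0 genes of the set passed with vehicle (12.5% of all genes) and 2 with insulin, namely NRG1 and ERBB3 (10.5% of all genes), and DESeq2 also called 0 in both, as did edgeR without the 2 libraries that stood apart. EGFR had a log2 fold change of 0.00 with H1047R and vehicle (95% interval -0.10 to 0.10), and LRIG1 had 0.06 (-0.10 to 0.22). NRG1 was at 21.8, 20.3 and 21.6 CPM in H1047R insulin cells, against 18.8, 18.8 and 18.5 CPM in insulin cells. Every H1047R library was higher, but the log2 fold change of 0.18 ± 0.08 (SE) missed the adjusted threshold (edgeR adjusted p = 0.391), and 12.8% of all genes had groups without overlap in this comparison. ERBB3 was at 13.7, 12.9 and 11.5 CPM in H1047R insulin cells, against 15.04, 14.6 and 13.7 CPM in insulin cells, with a log2 fold change of -0.20 ± 0.10 (SE, edgeR adjusted p = 0.474).

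TGFA was the gene of the set with the smallest adjusted p for H1047R with vehicle. It had 0.791, 1.24 and 1.01 CPM in H1047R vehicle cells, against 0.691, 0.538 and 0.694 CPM in siRSAD2 vehicle cells. These groups did not overlap, as in 19.0% of all genes, and the log2 fold change of 0.67 ± 0.39 (SE) had an edgeR adjusted p of 0.510. AREG had a log2 fold change of 0.36 ± 0.22 (SE, edgeR adjusted p = 0.550). Of the rest, HBEGF had 0.03 with vehicle (95% interval -0.14 to 0.21) and 0.10 with insulin (-0.08 to 0.28), and ERRFI1 had -0.02 (-0.13 to 0.09) and -0.04 (-0.16 to 0.07). ERBB2 had -0.09 with vehicle (-0.20 to 0.02) and 0.03 with insulin (-0.08 to 0.14), while EREG had intervals of -1.58 to 1.30 and -0.49 to 2.39, too wide to place it. For the interaction of insulin and H1047R, 0 of the 10 genes and 0 of all genes (0%) passed in edgeR and 0 of the 10 in DESeq2, the smallest adjusted p in the set was 0.790, and 0 of the 10 and 1611 of all genes (6.95%) had an unadjusted p under 0.05. The intervals of the interaction were -0.10 to 0.19 for EGFR and -0.36 to 0.11 for LRIG1, so differences between both insulin effects within these bounds could not be told from 0.

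The family has further members outside the 10. ERBB4 and NRG3 had at most 2 and 1 counts in any library and were not tested, BTC and NRG4 had at most 9 and 4 counts, and EGF had 11 to 46. EPGN (epigen), a ligand of EGFR that is encoded next to the AREG and EREG cluster, was the only one of the 5 tested that passed in any comparison. It passed with insulin, where 6.28% of all genes passed with the empty plasmid and 2.47% with H1047R. It had 3.78, 3.52 and 2.92 CPM in insulin cells, against 2.14, 2.50 and 1.98 CPM in siRSAD2 vehicle cells. With H1047R it had 3.54, 3.60 and 3.57 CPM in H1047R insulin cells, against 1.96, 2.30 and 1.52 CPM in H1047R vehicle cells. The insulin groups were higher without overlap in both settings (18.9% of all genes had no overlap with the empty plasmid and 19.4% with H1047R). EPGN rose by 0.64 ± 0.19 with the empty plasmid (SE, edgeR adjusted p = 0.0403) and by 0.86 ± 0.19 with H1047R (SE, edgeR adjusted p = 0.00794), on the log2 scale. Without the 2 libraries that stood apart, the difference with the empty plasmid was 0.55 ± 0.24 (SE) and did not pass (edgeR adjusted p = 0.234).

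Genes that respond to ERK, the kinase at the end of a main pathway below EGFR, were counted in every comparison, beside the share of all genes that passed. With siRSAD2, 8 of 15 rose and 2 fell, against 9.82% of all genes higher and 9.72% lower, and the median was 0.34, against 0.02 over all genes. FOSL1, an AP-1 factor, rose by 0.76 ± 0.06 and SPRY4, a feedback inhibitor, by 0.73 ± 0.06 on the log2 scale, whereas EGR1, an immediate early factor, fell by 1.31 ± 0.07. With insulin and the empty plasmid, 12 of 15 fell and 1 rose (median -0.33), against 4.19% of all genes lower and 2.10% higher. With insulin and H1047R, 9 fell and 1 rose (median -0.22), against 1.99% lower and 0.483% higher, and the median over all genes was 0.00 in both. Without the 2 libraries that stood apart, 8 rose and 1 fell with siRSAD2, and 11 fell and 1 rose with insulin and the empty plasmid. The phosphatase gene DUSP6 averaged 74.4 ± 3.03 CPM in insulin cells and 120 ± 3.22 CPM in siRSAD2 vehicle cells (SD, n = 3 each), a fall of 0.69 on the log2 scale, and the ETS factor ETV4 fell by 0.67. With H1047R, ETV4 fell by 0.56 and SPRY4 by 0.50 with insulin. EGR1 was the gene that rose with insulin in both settings, with means of 49.6 CPM in insulin cells against 24.8 CPM in siRSAD2 vehicle cells (log2 fold change 1.00 ± 0.07, SE). With H1047R the means of EGR1 were 50.4 CPM in H1047R insulin cells against 34.0 CPM in H1047R vehicle cells (0.56 ± 0.07, SE). In vehicle-treated cells, EGR1 was higher by 0.46 and FOSL1 lower by 0.26 with H1047R (1 rose and 2 fell without those libraries). Of all genes, 1.36% passed in this comparison, in which H1047R and the forward-strand split cannot be told apart. In insulin-treated cells, 0 of 15 passed for H1047R, against 0.285% of all genes.

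Among the genes of ligand release, 2 of 11 rose and 2 fell with siRSAD2 (3 and 3 without the 2 libraries that stood apart), beside 9.82% of all genes higher and 9.72% lower, and 0 passed in any other comparison (1 fell with insulin and the empty plasmid without those libraries). TIMP3, an inhibitor of ADAM17, rose by 0.49 ± 0.05 and RHBDF2 (iRhom2), which carries ADAM17 to the surface, by 0.46 ± 0.09, while CNIH1, a cargo receptor that in flies exports a TGFA-like ligand, fell by 0.36 ± 0.05 (log2, SE). Of 12 further genes that were listed as negative regulators and could be tested, 4 rose (5 without those libraries) and 1 fell with siRSAD2. The same shares of all genes apply, and the rises were led by the ligase genes RNF41 at 0.28 and CBLB at 0.26 and by SOCS5 at 0.24. With insulin and the empty plasmid, 3 of these 12 fell (CBLB by 0.29, UBASH3B by 0.28 and SOCS5 by 0.16), against 2 without those libraries and 4.19% of all genes. With insulin and H1047R 1 fell (UBASH3B by 0.23), beside 1.99% of all genes. Of 15 adaptors that bind the activated receptors, 2 rose and 3 fell with siRSAD2, with and without those libraries and beside the same 9.82% and 9.72% of all genes, among them CRKL, which fell by 0.46, NCK1, which fell by 0.40, and SHC1, which rose by 0.22. With insulin, 2 of the 15 adaptors fell in each setting, against 4.19% of all genes lower with the empty plasmid and 1.99% with H1047R. GAB2, a docking protein that joins receptors to phosphatidylinositol 3-kinase, fell by 0.80 ± 0.10 with the empty plasmid and by 0.56 ± 0.10 with H1047R (SE). The other was CRK (by 0.34) with the empty plasmid and EPS8 (by 0.16) with H1047R. These 3 lists had medians between -0.12 and 0.12 in the siRNA and insulin comparisons. None of their genes passed for H1047R against the empty plasmid, where only 1.36% of all genes passed with vehicle and 0.285% with insulin.

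**Figure D4:**
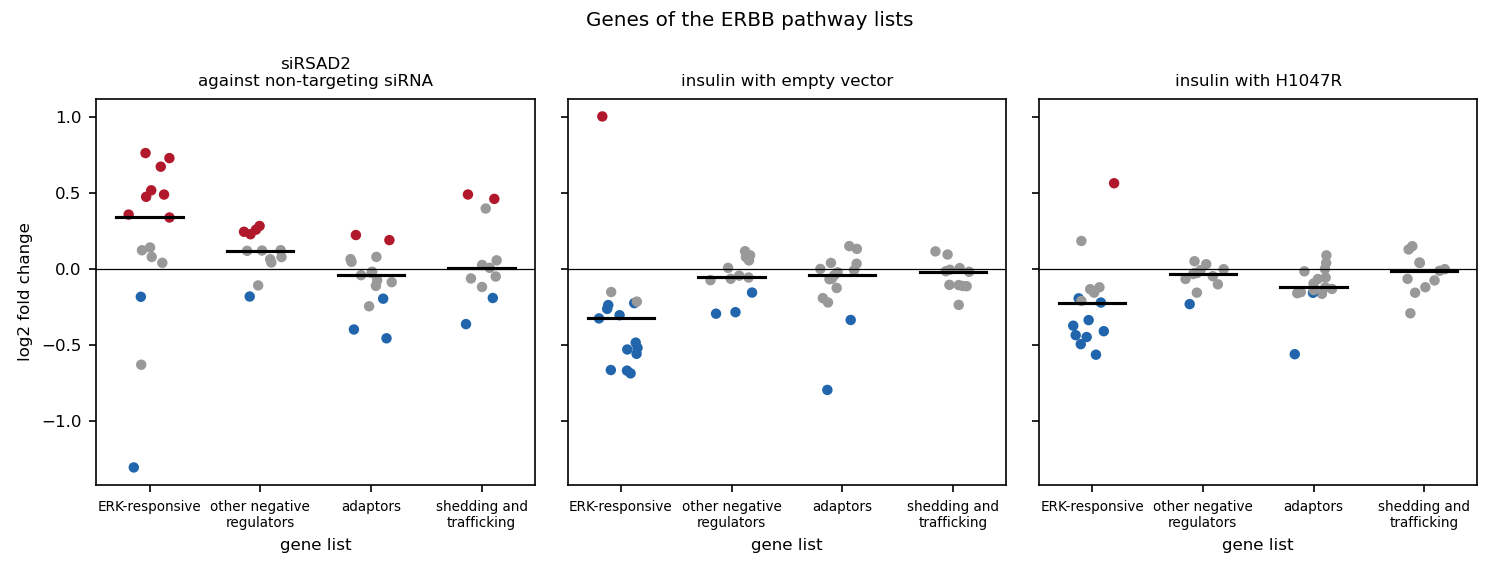
Log2 fold changes (vertical axis) of the genes of 4 ERBB pathway lists (horizontal axis) with siRSAD2 and with insulin and either plasmid, with black lines for the median of each list. Red marks genes that passed as higher, blue those that passed as lower and grey the rest; the ERK-responsive list has a median of 0.34 with siRSAD2 and of -0.33 and -0.22 with insulin, with EGR1 on the other side in each panel.

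The patterns of the 10 genes over the 15 libraries were compared with those of 9590 genes of at least 10 CPM by Pearson's r, which is a description because libraries of one group share their treatment. For LRIG1 the closest were ITGB8 (r = 0.97), SMAD3 (0.97) and PPL (0.97), and for AREG they were FARP2 (0.95), AEN (0.94) and YKT6 (0.93). For TGFA they were ZNF654 (0.87), SDC4 (0.86) and RPS6KA6 (0.86), and for EREG, at its few counts, ELP4 (0.88), PHYH (0.82) and NUBPL (0.80).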

How the data were processed

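RNA-seq libraries were made with an mRNA kit and sequenced as paired ends. The authors trimmed reads with cutadapt and Trim Galore, ran STAR against hg38 and deposited its raw gene counts, with no normalization. Versions are not given in the sources used here, and the annotation release named in the methods is numbered as a mouse release although the identifiers are human. Reverse-stranded counts were used. Of 60617 identifiers, 60357 matched GENCODE release 44, which gave symbols, coordinates and exon lengths. The 4 summary entries per library (22.2% to 30.5% of its reads) were kept apart.

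The 15 libraries were fitted together by edgeR 4.0.16 under R 4.3.3 (TMM, a term per group, quasi-likelihood F test), over 23184 genes whose mean was 1 count or more. P-values were adjusted over all genes by Benjamini-Hochberg (threshold 0.05). The SE is the log2 fold change over the square root of F, and 95% intervals use the fit's t distribution. The steps were tested on simulated data. Alternatives were DESeq2 1.42.0, RLE size factors, other filters, a threshold of 0.001, unstranded counts, only the groups compared, a replicate block and each library left out. Those on the forward-strand share, the libraries that stood apart and siRSAD2 libraries alone were chosen after seeing the data. The genes and lists were chosen with earlier results of these data known.

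All 10 genes are named in every comparison. From each list, up to 3 genes per comparison with the largest changes past the threshold are named, and the 3 most similar genes are printed for the 4 genes with the widest range of group means. Counting error alone is largest for EREG and TGFA.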

Additional observations from a re-analysis of the deposited data

How the results depend on the processing

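The number of the 10 genes called moved by more than 1.5 times under 1 alternative, an adjusted p threshold of 0.001, which left 3 with siRSAD2 and 1 with insulin and the empty plasmid. No called gene changed direction. Calls lost at 0.05 are given in the report, those of EGFR, LRIG1 and ERBB3. Of 49 differences that did not pass, 24 changed sign under some alternative, reaching at most 0.57 (EREG). The filter of edgeR left EREG out, so it gave no value there. Most same-numbered siRSAD2 libraries did not deviate together: 2 of 18 pairs had r above 0.1 (range -0.28 to 0.38, against -0.43 to 0.31 in pairs of different number). Both joined insulin cells and H1047R insulin cells, at r = 0.38 for replicate 1 and 0.31 for replicate 2. The numbers thus give little basis for a replicate block, which was run as an alternative only. With the block, LRIG1 fell by 0.38 with insulin and the empty plasmid (edgeR adjusted p = 0.00619) and ERBB3 by 0.36 with H1047R (adjusted p = 0.0379), and none of the calls of the 10 genes changed; control libraries are numbered 4 to 6 and could not be paired. Over all genes, 4530 passed with siRSAD2, 1457 and 573 with insulin (empty plasmid, H1047R), and 316 and 66 with H1047R (vehicle, insulin). The threshold of 0.001 left 1761, 353, 205, 11 and 13. Only the groups compared gave 520 and 1272 with insulin and 546 and 39 with H1047R. DESeq2 gave 154 for H1047R with insulin. With no filter on low counts, H1047R had 707 and 418 and the interaction 81. Fits of siRSAD2 libraries alone gave 166 and 42 for H1047R, a term for the forward-strand share 3 and 20, the libraries above 6% alone 42 with insulin, and leaving out the 2 libraries that stood apart 484 with vehicle. Leaving out 1 library gave 3413 to 4010, 947 to 1844, 354 to 416, 64 to 305 and 19 to 463, in the same order. EREG and TGFA, with 2 to 49 counts, are limited by depth.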

Other observations

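Reads on the strand opposite to ERBB2 were 10.8% to 14.2% of the reads at its locus, against at most 5.0% for the other 9 genes. ERBB2 shares 8884 bases with PGAP3 and 1931 bases with MIEN1, both on the opposite strand, and these had 201 to 495 and 496 to 1288 reverse-stranded counts per library. The fitted counts are strand-specific, and unstranded counts changed no call among the 10 genes. LRIG1 shares 9320 bases with SLC25A26 on the opposite strand, and its own forward-strand share was at most 2.20%.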
